A study of Mus musculus with 18 samples.

Results

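The elastic fibre genes described here are 10 genes of the mouse, *Eln*, *Fbn1*, *Mfap2*, *Mfap4*, *Mfap5*, *Emilin1*, *Fbln5*, *Efemp1*, *Efemp2* and *Loxl1*, taken by symbol from a table of 35655 genes. All 10 were among the 10312 genes with enough counts to be tested. They were followed through 18 libraries of carotid artery from wild-type (WT) mice of the C57/BL6 strain, 4 from day 0, labelled pre-injury, and 4, 3, 4 and 3 from days 7, 14, 21 and 28 after wire injury, in which a wire is used to strip and stretch the vessel wall. By the study's methods the mice were males aged 11 weeks at surgery, the left carotid was injured and the right was the control, vessels with thrombosis were left out, and tissue sections with the outer elastic lamina and the neointima were cut out by laser, up to 70 of them per sample. Libraries were made by nanoMACE, a low-input method that reads the 3′ ends of messenger RNA and removes PCR copies by molecular barcodes. The study describes the samples as pooled, without stating whether each library came from a single mouse, or whether the day 0 libraries are right carotids, and 3 numbers that end sample labels occur on both day 0 and day 21. The p-values therefore measure the spread between these samples, part of which may be technical.

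Elastic fibres give an artery its recoil. Tropoelastin, the product of *Eln*, is secreted by smooth muscle cells and fibroblasts, is laid down on a scaffold of fibrillin microfibrils, and is cross-linked through its lysines by lysyl oxidases. Fibulins bring tropoelastin, the microfibrils and the cross-linking enzymes together, and the finished protein forms the elastic laminae that bound and divide the medial layer. Most arterial elastin is made before adulthood and turns over very slowly.

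The genes lie on 8 mouse chromosomes (GRCm39, GENCODE vM39). *Eln* spans chr5:134731445-134776322 on the minus strand, with 37 exons in its canonical transcript. *Emilin1* is on the same chromosome, at chr5:31070717-31078622, plus strand. *Fbn1* spans chr2:125142514-125349913 (minus strand, 65 exons), *Fbln5* chr12:101712556-101785429 (minus strand) and *Loxl1* chr9:58195014-58220495 (minus strand). The others are on the plus strand, *Mfap2* at chr4:140737729-140743295, *Mfap4* at chr11:61376212-61379727, *Mfap5* at chr6:122470878-122508875, *Efemp1* at chr11:28803150-28876825 and *Efemp2* at chr19:5523975-5532545. Exons of 5 of the genes overlap a gene on the other strand, *Gm30003* for *Eln* (248 bases), *Gm9913* for *Fbn1* (2442 bases), *Mapk7* for *Mfap4* (90 bases), *Mus81* for *Efemp2* (173 bases) and *Gm57034* for *Loxl1* (160 bases). Whether the counting used the strand is not stated, so reads from these overlaps cannot be assigned to a gene with certainty.

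The sequences just before the start of *Eln*, *Fbn1*, *Fbln5* and *Loxl1* are shown because these 4 genes were called higher in at least 1 comparison between days. Each line gives the 250 bases before the canonical start, 5′ to 3′ on the strand of the gene, read from the GRCm39 genome. Capitals mark matches, on either strand, to CCAAT, to GGGCGG or to the CArG box, the site of serum response factor in smooth muscle genes. The windows are chr5:134776323-134776572 for *Eln*, chr2:125349914-125350163 for *Fbn1*, chr12:101785430-101785679 for *Fbln5* and chr9:58220496-58220745 for *Loxl1*, all on the minus strand.
Eln: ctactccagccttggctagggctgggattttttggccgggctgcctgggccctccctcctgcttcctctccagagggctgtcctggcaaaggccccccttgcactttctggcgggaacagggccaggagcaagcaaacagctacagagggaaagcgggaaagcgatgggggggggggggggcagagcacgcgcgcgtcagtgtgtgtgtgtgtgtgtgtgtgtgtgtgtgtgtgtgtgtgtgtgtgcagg
Fbn1: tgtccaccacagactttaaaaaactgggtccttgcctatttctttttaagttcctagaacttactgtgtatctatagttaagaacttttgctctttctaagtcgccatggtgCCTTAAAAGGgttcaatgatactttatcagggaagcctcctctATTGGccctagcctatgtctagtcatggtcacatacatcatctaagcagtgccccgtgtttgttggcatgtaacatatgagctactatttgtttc
Fbln5: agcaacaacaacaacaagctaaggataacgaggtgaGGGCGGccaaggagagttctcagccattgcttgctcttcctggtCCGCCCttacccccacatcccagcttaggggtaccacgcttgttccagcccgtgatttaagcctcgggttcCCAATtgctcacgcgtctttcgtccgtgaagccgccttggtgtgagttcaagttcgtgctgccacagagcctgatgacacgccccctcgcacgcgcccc
Loxl1: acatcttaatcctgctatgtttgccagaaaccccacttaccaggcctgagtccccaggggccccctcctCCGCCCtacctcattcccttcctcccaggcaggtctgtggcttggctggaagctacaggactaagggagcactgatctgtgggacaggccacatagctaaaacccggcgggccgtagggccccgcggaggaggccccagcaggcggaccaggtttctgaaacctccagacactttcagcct

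The *Eln* window held none of the 5 motifs searched, which were those above, TATAAA and TGANTCA, and ended in a run of alternating g and t. *Fbn1* carried a CArG box 138 to 129 bases before its start, a motif held by 1.4% of the 21757 protein-coding windows of this length, and a CCAAT box 95 to 91 bases before it. *Fbln5* held CCAAT 99 to 95 bases before its start and GGGCGG at 214 to 209 and at 170 to 165 bases, and *Loxl1* held GGGCGG at 181 to 176 bases. None of these matches overlapped another. Across all 10 genes, TATAAA was in 0 windows (11.9% of all windows), CCAAT in 2 (36.5%), GGGCGG in 5 (36.3%), TGANTCA in 2 (6.2%) and the CArG box in 1. The G and C content was 63.2% for *Eln*, 58.4% for *Fbln5*, 60.8% for *Loxl1* and 40.4% for *Fbn1*, against a median of 53.2% for all windows. *Fbn1* has a further annotated coding start 1548 bases downstream and *Fbln5* one 702 bases downstream, and their windows were not searched. Matches to letters are a description of these windows and not binding sites.

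Total counts per library ran from 440675 to 878310, with a median of 659166, and no 2 libraries were identical. Levels are given as CPM, counts per 1000000 counts over the tested genes after TMM scaling between libraries. They are not divided by length, and the method reads 3′ ends. They are used to compare a gene between days, and ranks and sums over genes are of tags only. Fold changes, their standard errors (SE) and adjusted p-values come from edgeR's quasi-likelihood test in 1 fit over the 18 libraries, with Benjamini-Hochberg adjustment over all genes tested, and a gene was called where the adjusted p was under 0.05. Each comparison with day 0 uses the same 4 day 0 libraries. The uninjured tissue was rich in smooth muscle transcripts, with *Acta2*, the smooth muscle actin, at 14632 to 17968 CPM and *Myh11*, the smooth muscle myosin, at 3449 to 4181 CPM.

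*Eln* rose steeply 14 and 21 days after injury and was low again on day 28. Day 0 libraries held 9097, 7185, 7718 and 7294 CPM. Day 7 libraries held 8009, 4268, 2823 and 28344 CPM. The day 7 group was thus split, with 3 libraries at or below the uninjured range and replicate 4 more than 3 times as high as any other. On day 14 the values were 46447, 20298 and 35622 CPM. On day 21 they were 43589, 42892, 33479.9 and 38296 CPM. On day 28 they were 7644, 2972 and 5748 CPM. All 7 libraries of days 14 and 21 were above all 4 of day 0, while the day 28 range reached into the uninjured range.

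The means were 7823 ± 879.7 CPM on day 0 (SD, n = 4), 10861 ± 11859 on day 7 (n = 4), 34123 ± 13139 on day 14 (n = 3), 39564 ± 4687 on day 21 (n = 4) and 5454 ± 2349.6 on day 28 (n = 3). Against day 0, *Eln* was 4.36-fold higher on day 14 (log2 fold change 2.12, SE 0.48, edgeR adjusted p = 0.00643) and 5.06-fold higher on day 21 (2.34, SE 0.46, adjusted p = 0.00198). Days 7 and 28 gave log2 fold changes of 0.47 (SE 0.44, adjusted p = 0.529) and -0.52 (SE 0.48, adjusted p = 0.658), neither of which passed. The 95% interval of the day 28 difference ran from -1.5 to 0.46. Between days 21 and 28 *Eln* fell by 2.86 on the log2 scale (SE 0.53, adjusted p = 0.00774), and all day 28 libraries were below all day 21 libraries. That call was lost without day 28 replicate 2 (-2.57, adjusted p = 0.0881) or without day 28 replicate 3 (-2.91, adjusted p = 0.0596). A block for the label numbers that days 0 and 21 share kept the day 21 call against day 0. It ended those of day 14 against day 0 (1.96, adjusted p = 0.168) and day 28 against day 21 (-3.03, adjusted p = 0.0576). Against day 0 the block also called fewer of all genes tested, most clearly on days 7, 14 and 28.

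**Figure D1:**
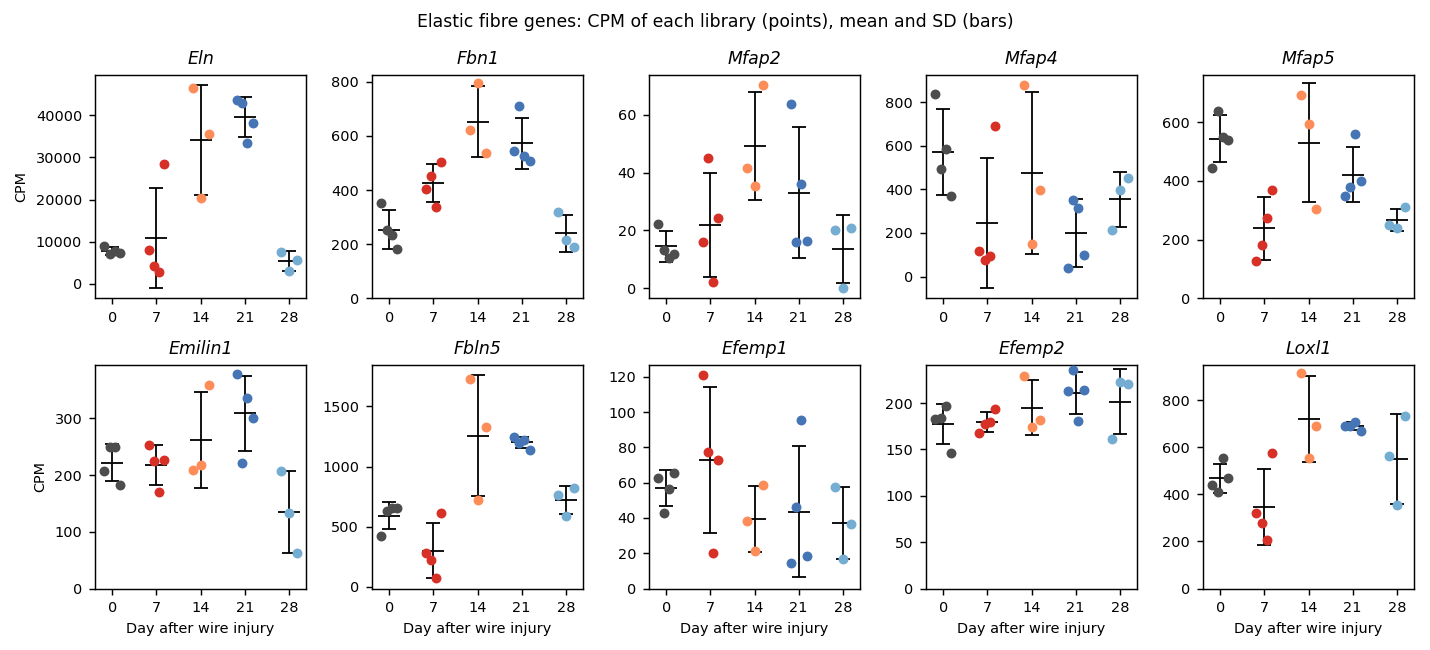
CPM (vertical axis, 1 scale per gene) of the 10 elastic fibre genes against the day after wire injury; points are libraries, and bars give the mean and SD of 4, 4, 3, 4 and 3 libraries. *Eln* sits between 20298 and 46447 CPM on days 14 and 21 and between 2972 and 9097 CPM on days 0 and 28, with day 7 replicate 4 (28344 CPM) apart from the other day 7 libraries, while *Efemp2* stays within a narrow range.

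*Eln* became the gene with the most counts of all genes in each library of days 14 and 21, 7 of the 18 libraries. It took 0.691% to 0.886% of counts on day 0, 2.07% to 4.28% on day 14, 3.17% to 4.30% on day 21 and 0.324% to 0.737% on day 28. On day 0 it ranked between 5 and 11 among all genes by counts, with *Acta2* first in all 4 libraries. On day 28 it ranked between 7 and 23, behind *Mgp*, the matrix Gla protein that restrains calcification, which was first in all 3 libraries. On day 7 its rank was 4, 11 and 26 in replicates 1 to 3 and 2 in replicate 4, where only *Mgp* had more counts. These ranks are of tags, with no correction for length.

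**Figure D2:**
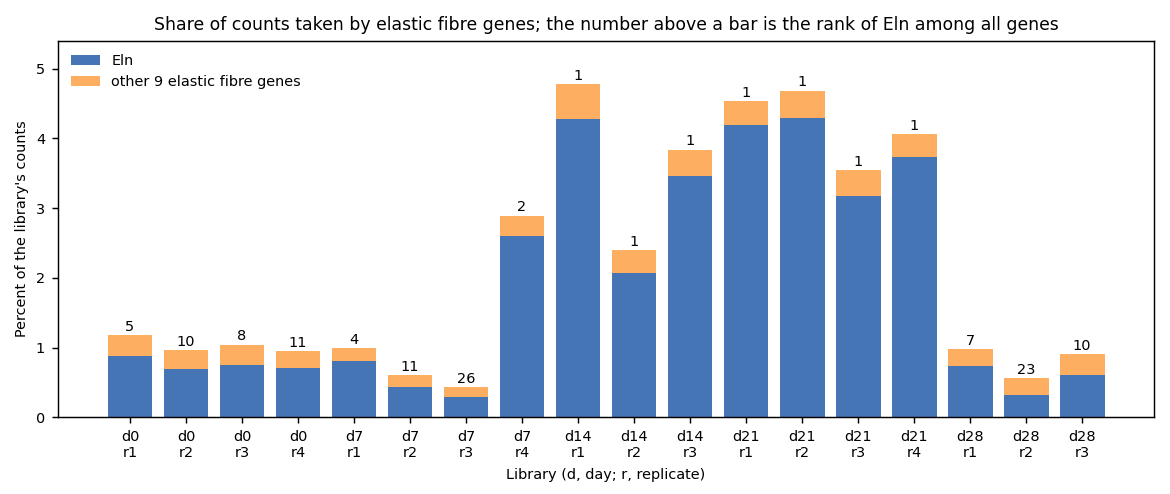
Percent of each library's counts (vertical axis) taken by *Eln* (blue) and by the other 9 elastic fibre genes together (orange), with the rank of *Eln* among all genes above each bar; d is day and r is replicate. *Eln* has rank 1 in all libraries of days 14 and 21 and takes 2.07% to 4.30% of their counts.

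The other 9 genes moved far less as a sum. Their summed level was 2899 ± 199 CPM on day 0 (SD, n = 4), 2047 ± 844 on day 7 (n = 4), 4181 ± 1066 on day 14 (n = 3), 3679.9 ± 283 on day 21 (n = 4) and 2523 ± 338 on day 28 (n = 3). As a mean over libraries, *Eln* supplied 72.9% of the counts of the 10 genes before injury and 77.4% a week after it. Its share was 88.6% and 91.4% on days 14 and 21, and 66.5% in the day 28 libraries. The share of *Eln* was thus highest on day 21, and the other genes are described next by role.

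Fibrillin-1, encoded by *Fbn1*, is the main subunit of the microfibril scaffold, and its gene was the only other one called against day 0 on more than 1 day. Day 0 libraries held 351, 251, 233 and 181 CPM, and day 7 libraries 404, 453, 339 and 505 CPM. Days 14 and 21 held 622, 796 and 539 CPM, and 545, 710.4, 526 and 507 CPM. Every library of days 14 and 21 was above every library of days 0 and 7. On day 28 the values were 317, 215 and 189 CPM, all inside the uninjured range. Against day 0 the day 7 log2 fold change was 0.74 (SE 0.24, edgeR adjusted p = 0.0277). It was 1.36 for day 14 (SE 0.25, adjusted p = 0.00142) and 1.17 for day 21 (SE 0.24, adjusted p = 0.00272), but -0.08 for day 28 (SE 0.26, adjusted p = 0.928). The day 7 call was weak, since the lowest day 7 library lay below the highest day 0 library and the call was lost in 6 of the 8 fits that left out a library of days 0 or 7 (adjusted p up to 0.109). The same label block ended the *Fbn1* calls on day 7 (adjusted p = 0.494) and day 14 (adjusted p = 0.119). From day 21 to day 28 *Fbn1* fell by 1.25 on the log2 scale (SE 0.26, adjusted p = 0.0243), a call lost without day 21 replicate 2 (adjusted p = 0.0678), day 28 replicate 2 (0.138) or day 28 replicate 3 (0.131).

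*Mfap5* and *Mfap2* encode the microfibril-associated glycoproteins, small proteins that bind fibrillin. *Mfap5* fell on day 7, from 444, 639.6, 550.0 and 541 CPM on day 0 to 128, 181, 275 and 369.7 CPM. All 4 day 7 libraries were below all 4 day 0 libraries. The log2 fold change was -1.19 (SE 0.29, edgeR adjusted p = 0.00413), the direction held in replicate 4 as well, and the label block ended the call (-0.97, adjusted p = 0.12). Day 14 held 693, 595 and 305 CPM and day 21 held 348, 379, 559 and 400.2 CPM, both overlapping day 0, with log2 fold changes of -0.04 (SE 0.31, adjusted p = 0.978) and -0.37 (SE 0.28, adjusted p = 0.506). On day 28 the values were 249.9, 239.8 and 312 CPM, again all below day 0, but the difference of -1.02 (SE 0.32, adjusted p = 0.113) did not pass over all genes. *Mfap2* had few counts, between 0 and 54 per library, so small differences were not detectable at this depth. Its means were 14.4 ± 5.38 CPM on day 0 (SD, n = 4) and 49.1 ± 18.7 on day 14 (n = 3), where all 3 libraries were above day 0 (log2 fold change 1.76, SE 0.74, adjusted p = 0.197).

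*Mfap4*, a fibrinogen-related protein that binds tropoelastin and fibrillin, varied widely within groups. Its day 0 libraries held 837, 494, 586 and 369 CPM, and its day 21 libraries 37.9, 353, 312 and 97.7 CPM. All day 21 libraries were below day 0, yet the difference did not pass (-1.52, SE 0.63, edgeR adjusted p = 0.141). On day 14 it ranged from 148 to 879.8 CPM and on day 28 from 213 to 452 CPM, both overlapping day 0. On day 7 replicates 1 to 3 held 118, 77.3 and 93.7 CPM and replicate 4 held 691 CPM, so the comparison of this group depended on 1 library. With that library the day 7 difference was -1.21 (SE 0.62, adjusted p = 0.192), and without it -2.58 (adjusted p = 0.0023).

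*Emilin1* encodes a glycoprotein found where elastin meets the microfibrils. It was steady through day 14, with means of 222 ± 33.1, 218 ± 35.0 and 262 ± 84.1 CPM on days 0, 7 and 14 (SD, n = 4, 4 and 3). On day 21 the libraries held 379, 222, 335 and 300.2 CPM, and on day 28 they held 207, 134 and 62.3 CPM. The day 28 libraries were all below the day 21 libraries, but the fall of 1.2 on the log2 scale missed the threshold (SE 0.32, edgeR adjusted p = 0.0745). It was called in 4 of 29 alternatives, by DESeq2, by limma, without the filter on low counts and without day 28 replicate 1.

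Fibulin-5, encoded by *Fbln5*, tethers tropoelastin to cells and binds the LOXL1 enzyme. Its gene was low on day 7 and high on days 14 and 21. Day 0 libraries held 426, 628, 657 and 655 CPM, and day 7 libraries 285, 221, 77.7 and 618 CPM. Day 14 libraries held 1724, 722 and 1326 CPM. On day 21 the 4 libraries lay between 1135 and 1248 CPM, an SD of 47.8 CPM around 1201. All libraries of days 14 and 21 were above all those of days 0 and 7. Against day 7 the log2 fold change was 2.06 on day 14 (SE 0.39, edgeR adjusted p = 0.007) and 1.99 on day 21 (SE 0.37, adjusted p = 0.00132), and the day 14 call was lost without day 14 replicate 1 (1.78, adjusted p = 0.0697) or with only the 2 days in the fit (adjusted p = 0.085). The label block ended the day 21 call (1.78, adjusted p = 0.0558). Against day 0 the differences did not pass on day 14 (1.09, SE 0.38, adjusted p = 0.102) or day 21 (1.02, SE 0.36, adjusted p = 0.0771), although the groups did not overlap. The day 7 difference from day 0 was -0.97 (SE 0.36, adjusted p = 0.0619), and -1.61 (adjusted p = 0.000816) without day 7 replicate 4. On day 28 the values were 761, 592 and 819.7 CPM, overlapping day 0.

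The other two fibulins behaved differently. *Efemp2* encodes fibulin-4, which is needed for elastin cross-linking and arterial wall integrity, and it was the flattest of the 10 genes. Its highest and lowest daily means were 211 ± 22.7 CPM on day 21 and 177 ± 22.1 CPM on day 0 (SD, n = 4 each), a 1.19-fold range. The interval of its day 21 difference from day 0 ran from -0.19 to 0.69 on the log2 scale, so a 2-fold difference in either direction lay outside it. *Efemp1*, which encodes fibulin-3, had 8 to 68 counts per library, with means between 36.9 CPM on day 28 and 72.7 CPM on day 7, and was called in no comparison. Its day 7 libraries ranged from 19.9 to 121 CPM. The interval of its day 7 difference from day 0 ran from -0.71 to 1.42, so a change within these bounds remained possible.

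*Loxl1* encodes the lysyl oxidase-like enzyme that oxidises tropoelastin lysines in adult tissue. Day 0 libraries held 439, 408, 553 and 471 CPM, and day 7 libraries 321, 279, 205 and 576 CPM. Day 14 held 913, 554 and 692 CPM, and day 21 held 688, 688, 709 and 668 CPM. The 4 day 21 libraries were nearly equal, with an SD of 16.7 CPM. Day 28 held 564, 354 and 733 CPM, which overlapped day 0. The day 21 difference from day 7 was 0.99 (SE 0.27, edgeR adjusted p = 0.0228), a call that was lost without day 7 replicate 1, 2 or 3 or day 21 replicate 1 (adjusted p 0.0515 to 0.0836) or with the label block (adjusted p = 0.192). Against day 0 it was 0.62 on day 14 (SE 0.29, adjusted p = 0.25) and 0.56 on day 21 (SE 0.27, adjusted p = 0.221), with all libraries of those days above day 0.

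**Figure D3:**
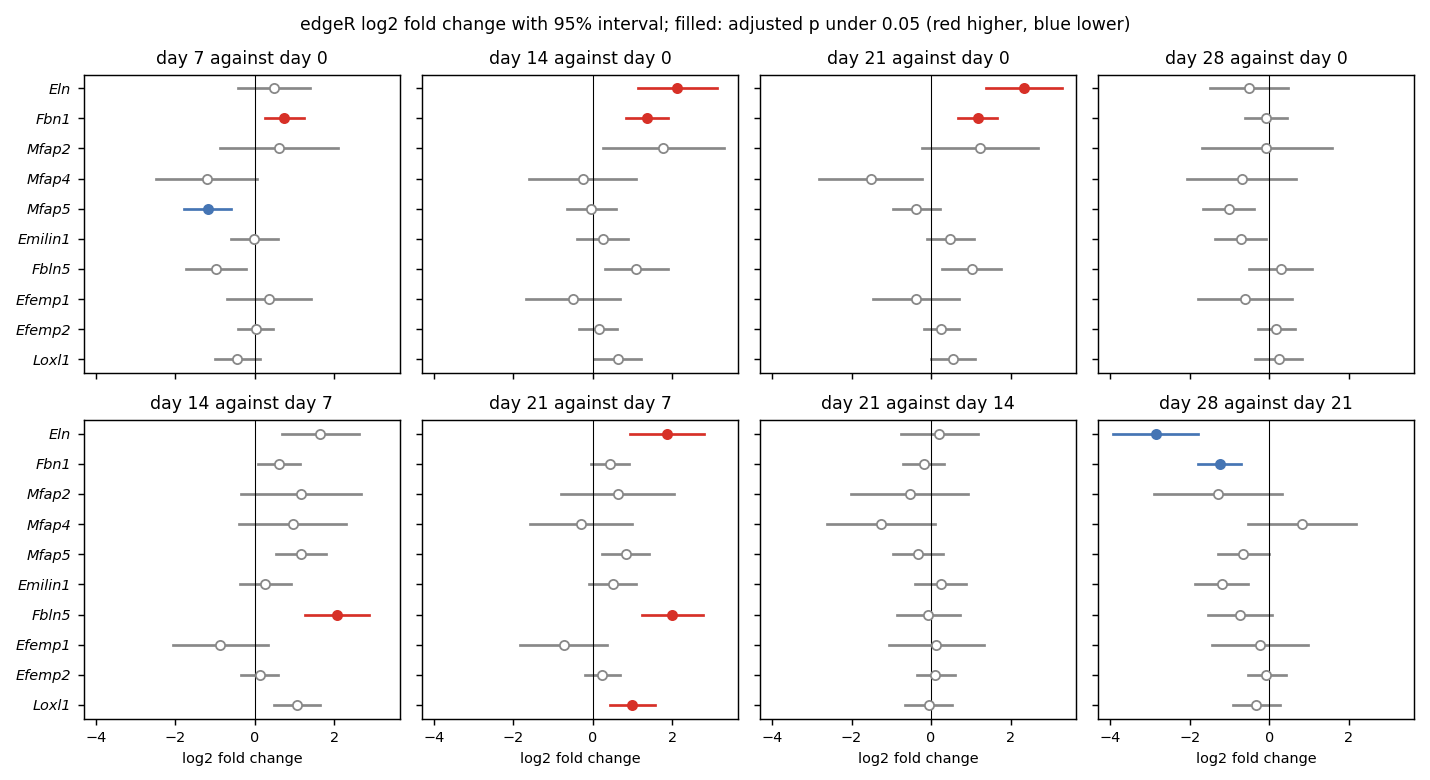
edgeR log2 fold change (horizontal axis) of the 10 genes in the 8 comparisons between days, with 95% intervals; filled red points are called higher and filled blue points called lower at an adjusted p under 0.05, and open points are not called. *Eln* and *Fbn1* are each filled in 4 of the 8 comparisons, and no point is filled for day 28 against day 0 or day 21 against day 14.

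Day 7 replicate 4 stood apart from its group in several of these genes. It stood at 3.54 times the next day 7 library in *Eln*, 5.88 times in *Mfap4*, 2.17 times in *Fbln5* and 1.80 times in *Loxl1*. It was also the highest in *Mfap5* (1.34 times), *Fbn1* (1.12 times) and *Efemp2* (1.08 times), by smaller gaps. In *Mfap2*, *Emilin1* and *Efemp1* it lay within the range of the others. Its summed smooth muscle markers were also higher, 7073 CPM against 1508 to 3412 CPM in replicates 1 to 3, while its macrophage markers, at 5649 CPM, lay within their range of 4396 to 6582 CPM. Without this library *Eln* on day 7 differed from day 0 by -0.64 instead of 0.47 (edgeR adjusted p = 0.158), and *Mfap4*, *Mfap5*, *Fbln5* and *Loxl1* were called lower, with *Loxl1* at -0.81 (adjusted p = 0.0218).

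Set out by comparison, 1 of the 10 genes was called higher and 1 lower on day 7 against day 0, where 11.3% of all tested genes were called higher and 8.53% lower. On day 14, 2 were higher and 0 lower, against 4.80% and 1.42% of all genes, and on day 21 also 2 and 0, against 5.92% and 2.93%. On day 28 none of the 10 was called by edgeR (2 at an unadjusted p under 0.05, *Mfap5* and *Emilin1*, 1 by DESeq2 and 0 by limma), where 0.970% and 0.369% of all genes were called. The medians of the 10 log2 fold changes were 0.00, 0.43, 0.52 and -0.30 on days 7, 14, 21 and 28, beside 0.07, 0.05, 0.07 and -0.01 for all genes tested. Groups that did not overlap were more frequent than calls. On day 14, 5 of the 10 genes had all libraries above day 0 (*Eln*, *Fbn1*, *Mfap2*, *Fbln5* and *Loxl1*), against 10.7% of all genes, and on day 21, 4 did (the same without *Mfap2*), against 9.31%. All libraries were below day 0 for *Mfap5* on days 7 and 28 (9.71% and 5.07% of all genes) and for *Mfap4* on day 21 (6.81%).

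Comparing injured days with each other, 1 gene was called higher and 0 lower on day 14 than on day 7 (1.33% and 0.330% of all genes), and 3 were called higher and 0 lower on day 21 than on day 7 (4.03% and 3.23%), *Eln* among them at 1.86 (SE 0.45, edgeR adjusted p = 0.0103, and 0.0836 with the label block). The libraries of day 14 were all above day 7 for *Fbn1* and *Fbln5* (6.34% of all genes), and those of day 21 for *Eln*, *Fbn1*, *Fbln5* and *Loxl1* (7.75%). Without day 7 replicate 4 the count called between days 14 and 7 was 5, with *Eln* at 2.76 (adjusted p = 8.79e-05). No share of all genes is given for that fit, so this count cannot be read as particular to the 10 genes. Days 14 and 21 could not be told apart. edgeR called none of the 10 and none of all genes tested between them, 0 of the 10 and 421 of 10312 had an unadjusted p under 0.05, and DESeq2 called 30 genes of all and limma 0. The interval of the *Eln* difference between days 21 and 14 ran from -0.76 to 1.19. Between days 28 and 21, 2 genes were called lower (0.572% of all genes) and 0 higher (0.107%), and 5 had all day 28 libraries below day 21 (*Eln*, *Fbn1*, *Mfap5*, *Emilin1* and *Fbln5*), against 8.30% of all genes. The median of the 10 was then -0.69, beside -0.07 for all genes.

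Markers of cell types moved over the same days. In bulk tissue, fewer cells of a type and less RNA per cell cannot be told apart. The 8 smooth muscle markers summed to 32240.1 to 37531 CPM on day 0, 1508 to 7073 on day 7, 7279.6 to 23415 on day 14, 8351 to 21715 on day 21 and 20039 to 28452 on day 28. On day 7 all 7 that could be tested were called lower. *Eln* and the summed contractile markers thus parted on days 14 and 21. All 7 libraries then had *Eln* above, and the sum of smooth muscle markers below, every day 0 library. By gene, 3 of the 7 tested markers were called lower on day 14 and 4 on day 21 (1.42% and 2.93% of all genes), and 0 higher. The 8 fibroblast markers summed to 2528 to 3725 CPM on day 0, 967 to 2294 on day 7, 3044 to 4625 on day 14, 2918 to 5384 on day 21 and 2332 to 2869.8 on day 28. Its members went opposite ways, since on day 21 *Lum* (log2 fold change 3.95) and *Ly6a* (1.45) were called higher and *Gsn* (-1.24) and *Clec3b* (-2.40) lower by edgeR. The 10 macrophage markers summed to 98.0 to 527 CPM on day 0, with up to 4 of them at 0 in a library and *Mpeg1* at 0 in all 4, and to 4396 to 6582 on day 7, 1201 to 2569 on day 14, 1859 to 3514 on day 21 and 794 to 1127 on day 28. Endothelial markers summed to 743 to 2372 CPM over all libraries, adipocyte markers to 0 to 148 CPM and red cell markers to 18.7 to 2328 CPM, the last highest on day 7. The part that these changes in makeup had in the elastic fibre results was not tested.

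**Figure D4:**
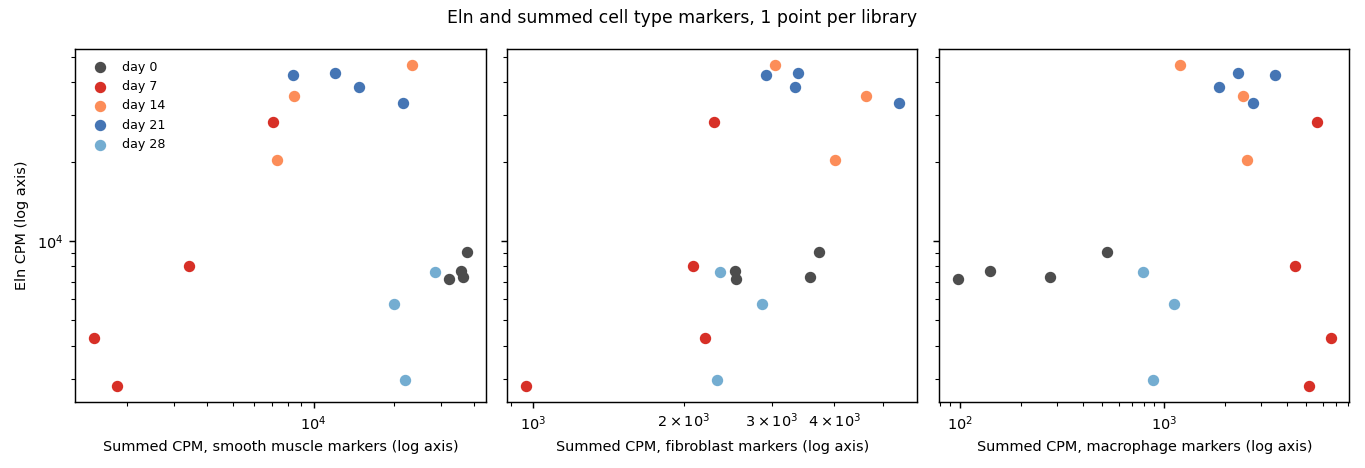
*Eln* CPM (vertical log axis) against the summed CPM (horizontal log axis) of smooth muscle, fibroblast and macrophage markers, 1 point per library coloured by day. The 7 libraries of days 14 and 21 lie at 20298 CPM of *Eln* or more with smooth muscle sums of 7279.6 to 23415 CPM, all under the day 0 sums.

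Other genes of elastic fibre biology were counted in 3 further lists. Of 24 further matrix partners and enzymes, 21 could be tested (*Fbn2*, *Loxl4* and *Atp7a* could not). On day 7, 7 were called higher and 7 lower than on day 0, where the shares of all tested genes were 11.3% and 8.53%. On day 14 there were 7 and 1 (4.80% and 1.42% of all genes), on day 21 there were 8 and 2 (5.92% and 2.93%), and on day 28 there was 1 each way (0.970% and 0.369%). Their median log2 fold changes were -0.26, 0.58, 0.72 and 0.23, beside 0.07, 0.05, 0.07 and -0.01 for all genes. *Ltbp2*, a fibrillin-binding protein of the latent TGF-beta binding family, rose from 51.5 ± 9.47 CPM on day 0 (SD, n = 4) to 639.6 ± 151 on day 21 (n = 4), with a log2 fold change of 3.63 (SE 0.27, edgeR adjusted p = 5.07e-09), and was the partner still called higher on day 28 (2.56, SE 0.27, adjusted p = 9.62e-06). *Ltbp4*, its relative that works with fibulin-5 in elastin assembly, fell on day 7 from 1384 ± 187 to 153 ± 129 CPM (n = 4 each, -3.17, SE 0.36, adjusted p = 1.07e-06) and stood at 1509 ± 110.2 CPM on day 28 (n = 3, 0.12, SE 0.36, adjusted p = 0.914).

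*Fbln2*, a fibulin that binds fibrillin and elastin, was highest on day 7, at 871 ± 227 CPM against 83.5 ± 11 on day 0 (SD, n = 4 each, log2 fold change 3.38, SE 0.25, edgeR adjusted p = 6.76e-09). It then stood at 426 ± 24.6 CPM on day 14 (n = 3) and 238 ± 40.1 on day 21 (n = 4), both still called higher. The gene for the cross-linking enzyme *Lox* was called higher on day 7 (1.31, SE 0.27, adjusted p = 0.000873), day 14 (1.87, SE 0.28, adjusted p = 0.000166) and day 21 (1.98, SE 0.27, adjusted p = 4.06e-05). On day 28 it was at 395 ± 149 CPM (n = 3), beside 400.7 ± 48.6 on day 0 (n = 4). Among the fibulins whose means are given here, the highest mean stood on day 7 for *Fbln2* and *Efemp1*, on day 14 for *Fbln5* and on day 21 for the flat *Efemp2*. *Fbln5* was not called between days 14 and 21 (edgeR adjusted p = 0.999), so these days do not form a tested order.

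Several genes for enzymes that degrade elastin were called higher after injury. Of 10 listed, 6 could be tested, of which 4, 3, 4 and 0 were called higher on days 7, 14, 21 and 28 (11.3%, 4.80%, 5.92% and 0.970% of all genes) and 0 lower. The other two, *Mmp9* and *Ctsl*, were called on no day, with day 21 log2 fold changes of -0.66 (SE 1.51, edgeR adjusted p = 0.863) and 0.07 (SE 0.31, adjusted p = 0.939). Cathepsin S (*Ctss*), a macrophage elastase, went from 6.89 ± 7.14 CPM on day 0 (SD, n = 4) to 533 ± 74.3 on day 7 (n = 4) and 189.6 ± 74.2 on day 21 (n = 4). *Mmp2*, a gelatinase of mesenchymal cells that also cleaves elastin, was at 168 ± 69.6 CPM on day 0 and 814 ± 67.4 on day 14 (n = 3, log2 fold change 2.28, SE 0.30, edgeR adjusted p = 2e-05). *Ctsk*, the collagenase and elastase cathepsin K, was called on days 7, 14 and 21, and *Mmp12*, the macrophage metalloelastase, on days 7 and 21. *Mmp12* rested on few counts and ranged from 3.55 to 230.2 CPM among the day 21 libraries. *Eln*, *Mmp2*, *Ctss* and *Ctsk* were thus all called higher than in uninjured tissue on days 14 and 21, as were all 10 macrophage markers.

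The 9 genes for receptors of elastic fibres, the integrins and the elastin receptor complex, were lower than on day 0 or not called against it. On day 7, 0 were called higher and 3 lower (11.3% and 8.53% of all genes), *Itga8* (-3.62, SE 0.62, edgeR adjusted p = 0.000143), *Itgb1* (-0.80, SE 0.21, adjusted p = 0.00783) and *Itgb5* (-0.96, SE 0.29, adjusted p = 0.0211). On day 14 *Itgb3*, whose product pairs with the alpha v chain, was lower (-1.53, SE 0.41, adjusted p = 0.0236), and on days 21 and 28 none was called against day 0 by edgeR. *Itga8*, an integrin of smooth muscle, fell on day 7 together with the smooth muscle markers.

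**Figure D5:**
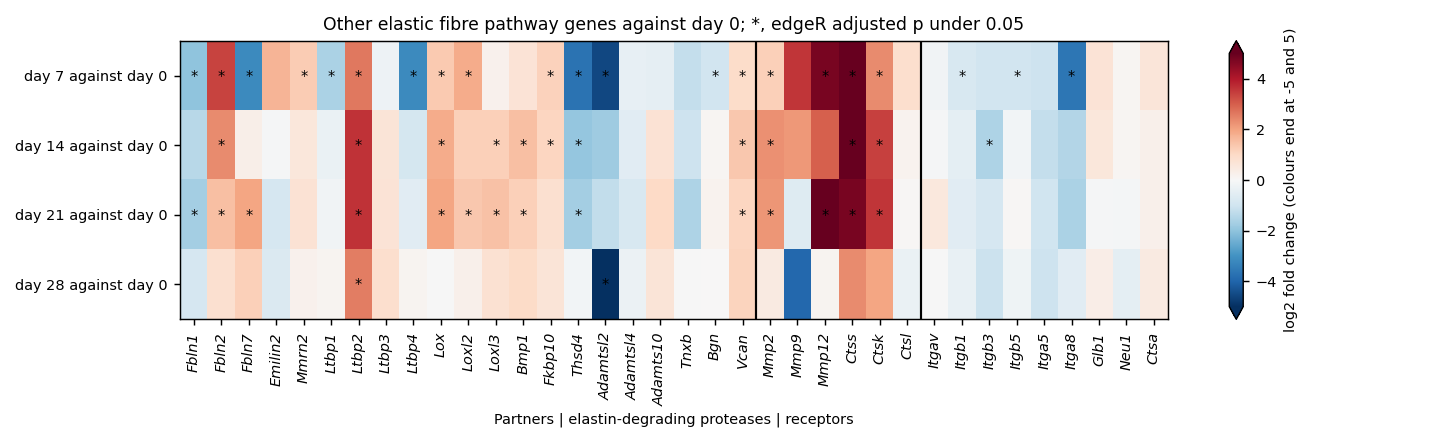
edgeR log2 fold change against day 0 (colour) of the 21 tested partners, 6 proteases and 9 receptors (columns) on days 7, 14, 21 and 28 (rows), with a star where the adjusted p is under 0.05. *Ltbp2* is red in all 4 rows, the protease block has 4, 3 and 4 red starred cells on days 7, 14 and 21, and the receptor block has 3 blue stars on day 7.

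The pattern of *Eln* over the libraries was compared with that of 7173 genes with a mean of at least 20 CPM, by the root mean square difference of their centred log2 CPM over the 18 libraries, where 0 means the same shape. The 5 closest genes were *Sfrp4*, a secreted Wnt antagonist (0.76), *Sparc*, a collagen-binding matricellular protein (0.82), *Lox* (0.83), *Adamts2*, the procollagen N-proteinase (0.87), and *Col3a1*, type III collagen (0.87), beside a median of 1.5. All 5 were matrix or secreted proteins. Their means were higher on days 14 and 21 than on the other days, which choosing them by likeness to *Eln* makes likely. *Sparc*, for example, was at 2756 ± 397 CPM on day 0 (SD, n = 4), 3075 ± 483 on day 7 (n = 4), 7240.2 ± 290.5 on day 14 (n = 3), 10430.0 ± 4359 on day 21 (n = 4) and 3068 ± 876 on day 28 (n = 3). Among the elastic fibre genes *Fbln5* was closest to *Eln* (0.89, with 7 genes closer), followed by *Fbn1* (0.99, 26 closer) and *Loxl1* (1.00, 29 closer). *Mfap4* was farthest (1.82, 6697 closer), and *Efemp1* was also far (1.62, 5397 closer). The most alike pair of the 45 was *Efemp2* and *Loxl1* (0.49), followed by *Fbn1* with *Emilin1* (0.55) and *Fbln5* with *Loxl1* (0.56). These distances describe 18 libraries that share days, depth and cell makeup, and flat genes lie close to each other by this measure.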

How the data were processed

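The authors removed PCR duplicates by molecular barcode, cropped reads and quantified them with Salmon 1.9.0 against the mouse mm39 transcriptome. The deposited table of raw values holds estimated counts as whole numbers. A second deposited table holds normalised values, a signal scaled by the authors with DESeq2 1.36.0 with a factor per library, plus a gene-level factor in many rows, and was used for 1 alternative. The annotation release and strand setting are not given in the sources used here. No deposited value is divided by length.

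From the raw table of 35655 genes (17606 without a count), 10312 passed edgeR's filterByExpr by day. edgeR 4.0.16 (R 4.3.3) was run with TMM scaling and a quasi-likelihood fit over 18 libraries with the day as factor, for 8 comparisons, and the SE was derived from the F statistic. The biological coefficient of variation was 0.449, and this spread with 3 or 4 libraries a day limits precision more than depth does for the genes with many counts. The scripts were tested on simulated data. Alternatives used DESeq2 1.42.0 and limma 3.58.1 (on the log2 of the deposited normalised values), other scalings and filters, blocks, and fits without 1 library each. Genes named were the 10 elastic fibre genes, up to 4 genes with the smallest p in each other list, the 5 genes closest to *Eln*, the 3 genes with the most counts in each library and overlapping genes; the partners that could not be tested are also named. The members and lists were chosen with earlier results of these data known. Promoter windows were read from GRCm39 with GENCODE vM39 starts.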

Additional observations from a re-analysis of the deposited data

Results flagged for a closer look

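In 33 sets of 4 libraries of 1 day (the 10 genes and *Eln* as a share of counts, on days 0, 7 and 21), the highest or lowest library was checked for a gap to its nearest neighbour that takes up most of the range of the set (Dixon's test), and 2 sets passed, where chance alone gives about 1 in 20 sets. *Mfap4* in day 7 replicate 4 stood at 691 CPM against 77.3 to 118 CPM in the other day 7 libraries, a gap of 0.934 of the range. *Fbln5* in day 0 replicate 1 stood at 426 CPM against 628 to 657 CPM in the other day 0 libraries, a gap of 0.872 of the range. *Eln* in day 7 replicate 4 (28344 CPM) did not reach the critical value, although it was 5.63 times the mean of the other day 7 libraries.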

How the results depend on the processing

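The 8 counts of elastic fibre genes called were recomputed under other tools, scalings, filters and sets of libraries, and each call among these 10 genes kept its direction in all of them; calls in the other lists were not recomputed. Without the filter on low counts, the count for day 7 against day 0 went from 2 to 4, for day 21 against day 0 from 2 to 4, for day 28 against day 0 from 0 to 1, for day 14 against day 7 from 1 to 5 and for day 21 against day 14 from 0 to 1. A block for the number shared by day 0 and day 21 labels left 0 calls on days 7 and 14 against day 0. It left 0 for day 21 against day 7 and 1 for day 28 against day 21. By construction it rests most comparisons with day 0 on the day 0 library that has a number of its own. In the same way, it rests comparisons of day 21 with the other injured days mainly on day 21 replicate 2. Among all genes tested, this block also gave far fewer calls on days 7, 14 and 28 against day 0, and somewhat fewer on day 21. Calls lost against day 0 were thus not particular to the elastic fibre genes. With only the 2 days compared in the fit, day 21 against day 0 gave 4 and day 14 against day 7 gave 0. Day 14 against day 7 was the least settled count, at 3 by DESeq2, 4 with library totals only, 2 with totals that leave out the elastic fibre genes, 3 with at least 20 counts in 3 libraries, 4 with a replicate block and 3 by limma, where *Eln*, *Mfap5* and *Loxl1* lay near the threshold. DESeq2 called 1 gene for day 28 against day 0. The cause of these shifts was not tested.

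Leaving out 1 library at a time gave 1 to 4 calls for day 7 against day 0, 2 to 3 for days 14 and 21 against day 0, 0 to 5 for day 14 against day 7, 2 to 4 for day 21 against day 7 and 0 to 3 for day 28 against day 21. For day 28 against day 0 and day 21 against day 14 it gave 0 throughout. A fit without the day 7 libraries, chosen after seeing the data, called *Fbln5* as well as *Eln* and *Fbn1* on days 14 and 21, 3 genes each. Libraries of different days with the same replicate number did not deviate together (33 pairs, median correlation of deviations -0.01, from -0.13 to 0.20). The 3 pairs that share a label number had a median of 0.04 (from -0.01 to 0.06). With 3 or 4 libraries a day, such correlations cannot decide whether samples are paired. The replicate block gave 3, 2, 2 and 0 calls on days 7, 14, 21 and 28 against day 0. It moved no count but that of day 14 against day 7 by more than 1.5 times. Fold changes of elastic fibre genes that were not called changed sign in 51 cases over all alternatives. Scaling by library totals moved the median of all genes by 0.10 on day 28 against day 0 and 0.09 on day 28 against day 21, and no scaling moved any other median by more than 0.05. It moved the share of higher genes among all calls between days 28 and 21 from 15.7% to 38.6%, and DESeq2 to 28.0%. DESeq2 moved that share from 72.5% to 62.0% on day 28 against day 0 and from 80.1% to 69.4% on day 14 against day 7, and limma moved the first to 57.5%. The few counts of *Mfap2* and *Efemp1* limit what could be seen in them.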
